A study of Mus musculus with 9 samples.

Results

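The genes described here encode the factors that start and elongate translation, with some of their modifying enzymes and binding proteins. All are called factors below. The genes were taken from the gene table by symbol: names beginning with *Eif* or *Eef* and a digit. The eIF2alpha kinases (*Eif2ak* names) and names marked as pseudogenes were left out. Of 43808 genes in the table, 78 met this rule, 66 *Eif* and 12 *Eef* genes. Of these, 62 (51 *Eif* and 11 *Eef*) had at least 20 reads in at least 2 of 3 libraries of any genotype and were tested. The other 16 fell below that minimum, 14 of them with 0 reads in every library, and the highest had 110 reads in its best library.

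RNA-seq had been done on hair cells (HCs), the mechanosensory cells of the inner ear, sorted from cochleae and vestibular organs of mice at postnatal day 1. The genotypes, with 3 mice each, were wild-type, *Mir96Dmdo* heterozygous and *Mir96Dmdo* homozygous mutant. All mice also carried the *Atoh1/nGFP* transgene, which labels HCs with nuclear GFP, and the sort kept cells positive for both GFP and the epithelial surface marker CD326. The diminuendo (*Dmdo*) allele was kept on C3HeB/FeJ and the transgene on C57BL6, so the mice came from a cross, and each library pooled the cochlear and vestibular HCs of both ears of a mouse. In such bulk samples, fewer cells of a type and less RNA per cell cannot be told apart. Libraries are named below by genotype and by the mouse number in their label (wild-type 44, 55 and 59, heterozygous 45, 48 and 51, homozygous mutant 43, 46 and 47).

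Translation starts when initiation factors (eIFs) bring the small ribosomal subunit with the initiator tRNA to the capped end of an mRNA and to its start codon. Elongation factors (eEFs) then deliver each aminoacyl-tRNA to the ribosome and move the ribosome along the message. The carrier of aminoacyl-tRNA, eEF1A, is made from a pair of genes: *Eef1a1* is used by most cells, whereas *Eef1a2* is known chiefly from neurons and from skeletal and cardiac muscle, where it takes over from *Eef1a1* after birth. Loss of *Eef1a2* causes the motor neuron and muscle wasting of the *wasted* mouse.

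The *Dmdo* change lies in the seed of miR-96, the bases that pair with target mRNAs. The mature wild-type sequence (RefSeq, GRCm38.p6, chr6:30169506-30169528, minus strand) and the same sequence with the adenosine of the seed replaced by uracil are shown with seed bases 2 to 8 in capitals, since each seed was searched for in the factors' mRNAs.
miR-96-5p: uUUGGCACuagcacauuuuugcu
miR-96-5p, *Dmdo*: uUUGGCUCuagcacauuuuugcu

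Libraries held between 18175317 and 34873964 counted reads. The HC transcription factor *Pou4f3* lay between 1021 and 1251 CPM (reads scaled to the TMM-normalized library size) in all 9 libraries, and the summed CPM of 10 HC markers lay between 9570 and 14553 in wild-type, 9291 and 13061 in heterozygous and 8049 and 9891 in homozygous mutant libraries. edgeR called none of the 10 in homozygous mutant against wild-type HCs, and 3 of the 10 estimates were above 0. At an unadjusted p under 0.05, 3 were lower, *Otof* (log2 fold change -1.07 ± 0.30), *Myo7a* (-0.88 ± 0.26) and *Gfi1* (-0.69 ± 0.24), and 1 was higher, *Pvalb* (2.14-fold). Their part in the results was not tested. By sample quality weights, in which a lower weight means a library farther from the fit, wild-type 59 (0.548) and homozygous mutant 46 (0.602) were the lowest. The paper reports lower RNA integrity in a wild-type and in a homozygous mutant sample than in the rest. It also gives a range of sorted cell numbers that reached lower in homozygous mutants than in wild-type. The part of RNA integrity and cell number in the results was not tested. The X-linked *Xist* was above the Y-linked *Ddx3y* in wild-type 44 and 59 and heterozygous 48, and *Ddx3y* was above *Xist* in the other 6, among them all 3 homozygous mutants. All 3 homozygous mutants also have mouse numbers of 47 or lower, as do only wild-type 44 and heterozygous 45 in the other genotypes. The labels do not say what these numbers stand for.

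The first question was which translation factors differed between homozygous mutant and wild-type HCs. A gene was called when edgeR's quasi-likelihood test gave a false discovery rate (FDR, the Benjamini-Hochberg adjusted p over all 15184 genes tested) under 10% and the fold change exceeded 1.5. *Eef1a2* was the only one of the 62 factors called, and it was 3.38-fold higher in homozygous mutants. In all genes tested, 1.15% were called, 36 higher (0.237%) and 139 lower (0.915%). DESeq2 called 7 of the factors where it called 6.36% of all genes, and limma-voom called 4 where it called 2.23%, with *Eef1a2*, *Eef1a1*, *Eef1b2* and *Eif4g3* called by both. At an unadjusted p under 0.05, 7 factors were higher and 1 was lower, against 747 (4.92%) and 1244 (8.19%) of all genes. The factors' median log2 fold change was 0.27, beside -0.02 over all genes, and 64.5% of the factors against 49.1% of all genes had an estimate above 0. With the mouse number split (47 or lower against 48 or higher) as a term in the fit, chosen because the homozygous mutants share 1 side of it, the factors' median was 0.09 and that of all genes 0.03.

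**Figure D1:**
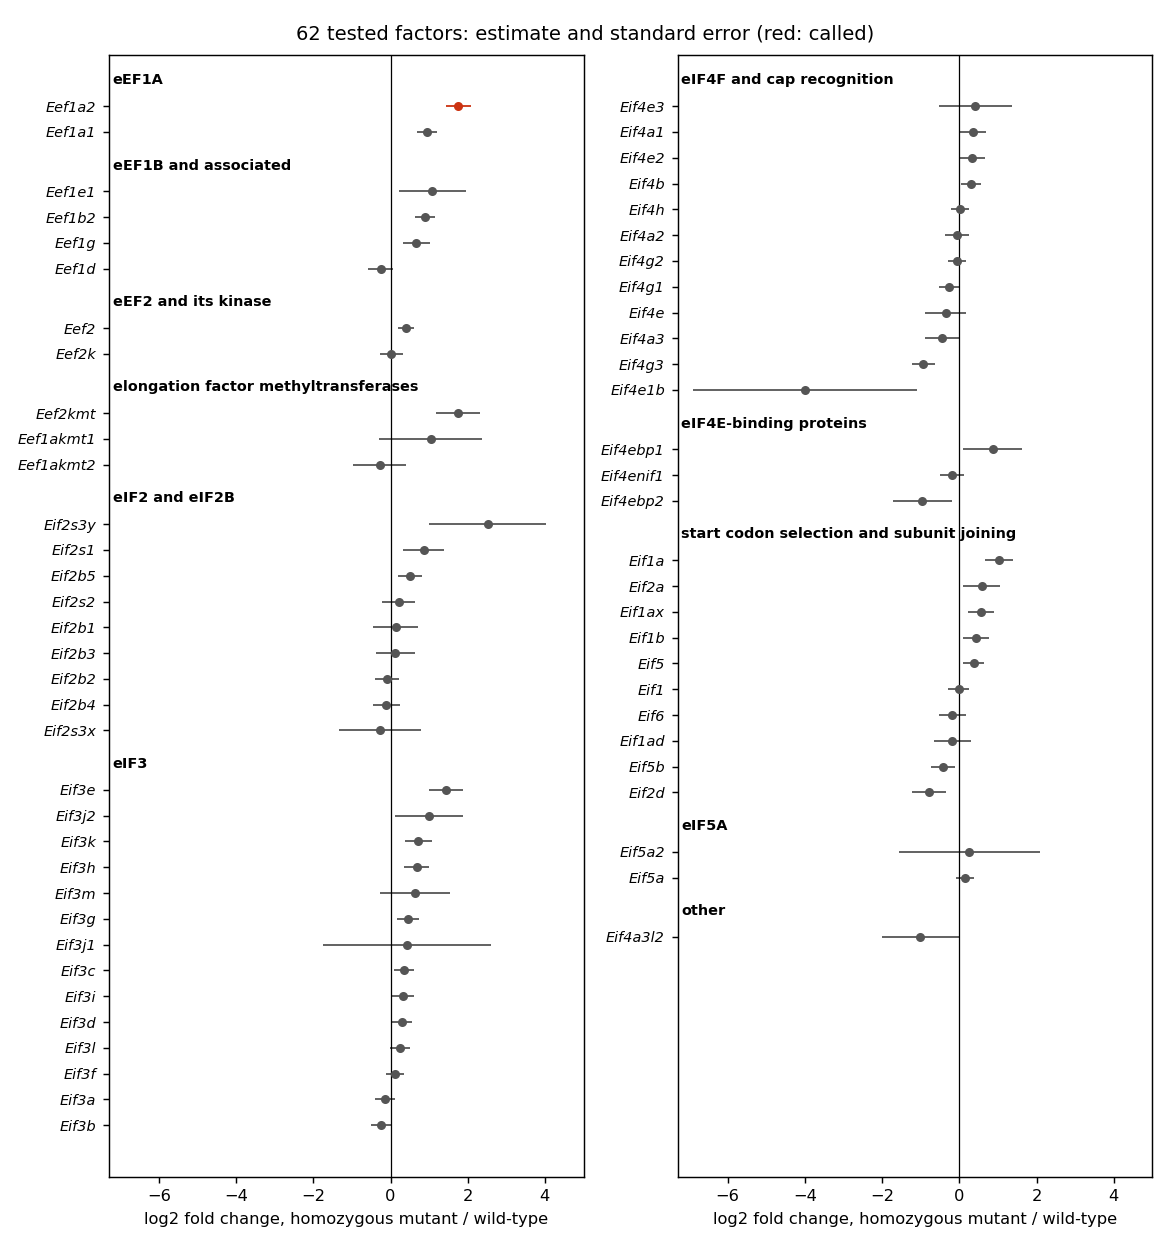
Log2 fold change of the 62 tested factors, homozygous mutant over wild-type, grouped by role. Points are edgeR estimates and bars are standard errors from 3 libraries per genotype. *Eef1a2* (1.76) is the only red, called point, and 12 of 14 eIF3 genes lie above 0.

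*Eef1a2* (ENSMUSG00000016349, chr2:181147653-181157014, minus strand, GRCm38) had 47.7, 93.5 and 56.3 CPM in wild-type 44, 55 and 59. The heterozygous libraries 45, 48 and 51 had 122, 201 and 105 CPM, and the homozygous mutants 43, 46 and 47 had 239.8, 247 and 182 CPM. Every heterozygous and every homozygous mutant library was above every wild-type library, while heterozygous 48 lay inside the homozygous mutant range. The log2 fold change was 1.76 ± 0.32 (SE, n = 3 and 3, edgeR FDR 0.016) for homozygous mutant against wild-type. The wild-type libraries were the shared reference of the heterozygous comparison, where it was 1.12 ± 0.32 with an unadjusted p of 0.0021 in edgeR and an FDR of 1. Between homozygous mutant and heterozygous HCs it was 0.64 ± 0.32 (edgeR FDR 0.730). The call was lost without wild-type 59 (edgeR FDR 0.104), without homozygous mutant 43 (0.111), without wild-type 59 and homozygous mutant 46 together (0.205), and with the log2 ratio of *Ddx3y* to *Xist* as a term (0.176), with log2 fold changes of 1.66, 1.73, 1.59 and 1.75. With the mouse number term it was 2.11 (edgeR FDR 0.014).

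Because *Eef1a2* is a gene of neurons and muscle, the markers of those cells were read beside it. The summed CPM of 10 neuron markers was 300.0 to 318 in wild-type, 284 to 352 in heterozygous and 309 to 328 in homozygous mutant libraries, ranges that overlap. Of the 7 neuron markers tested, 6 had an estimate above 0 in homozygous mutant against wild-type HCs, beside 49.1% of all genes. Their median log2 fold change was 0.53. edgeR called none of them, and 1 was higher and 1 lower at an unadjusted p under 0.05. The summed CPM of 8 skeletal and cardiac muscle markers was 9.29 to 39.5, 19.9 to 27.8 and 11.1 to 48.7 in the same order of genotypes. Of these 8, only *Ckm* and *Myl1* had 0 reads in all 9 libraries. The 2 muscle markers tested had log2 fold changes of -1.04 and 1.44 in homozygous mutant against wild-type HCs, and edgeR called neither. Schwann cell markers summed to 54.5 to 208 CPM in wild-type and 98.4 to 269 CPM in homozygous mutants, ranges that overlap. Of the 5 Schwann cell markers tested, 3 were higher at an unadjusted p under 0.05 in edgeR, beside 4.92% of all genes, and none was called. Mesenchyme markers summed to 722 CPM in homozygous mutant 46 and to 227 CPM or less elsewhere, and blood and macrophage markers to 9.12 CPM or less, with all 4 globin genes at 0. The part of these cells in the *Eef1a2* difference was not tested.

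*Eef1a1* (ENSMUSG00000037742, chr9:78478449-78489151, minus strand) had 4423, 2198 and 2625 CPM in the wild-type libraries in the order of their numbers. In heterozygous HCs it had 4770, 3098 and 3218 CPM, and in homozygous mutants 6373, 5756 and 5730 CPM. All homozygous mutant libraries were above all others, and wild-type 44 and heterozygous 45 were the highest of their genotypes. The log2 fold change of homozygous mutant over wild-type, 0.95 ± 0.25 (1.93-fold), missed the call at an edgeR FDR of 0.101. With the mouse number term it was 0.52 (edgeR FDR 0.508). The homozygous mutants had 5953 ± 364 CPM (mean ± SD, n = 3), beside 4423 CPM in wild-type 44 and a mean of 2412 CPM in wild-type 55 and 59.

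The *Eef1a1* count was open to reads of its processed pseudogenes, intronless copies elsewhere in the genome. Of the 75-base words of *Eef1a1* mRNAs, the length of the reads, 41.7% also occurred in another gene, and *Gm13456*, a pseudogene on chromosome 2, had 338681 reads over the 9 libraries beside 1037775 on *Eef1a1* itself. *Eef1a2* shared no 75-base word with any gene, so its reads could be told from those of *Eef1a1*: the coding sequences, 463 and 462 codons long, were 80.0% identical and their longest shared run was 23 bases. With the reads of 4 pseudogenes added, *Eef1a1* had 4246 ± 1491 CPM in wild-type, 4926 ± 1198 CPM in heterozygous and 7867 ± 471 CPM in homozygous mutant HCs. The log2 fold change was then 0.89 ± 0.25 (edgeR FDR 0.114).

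**Figure D2:**
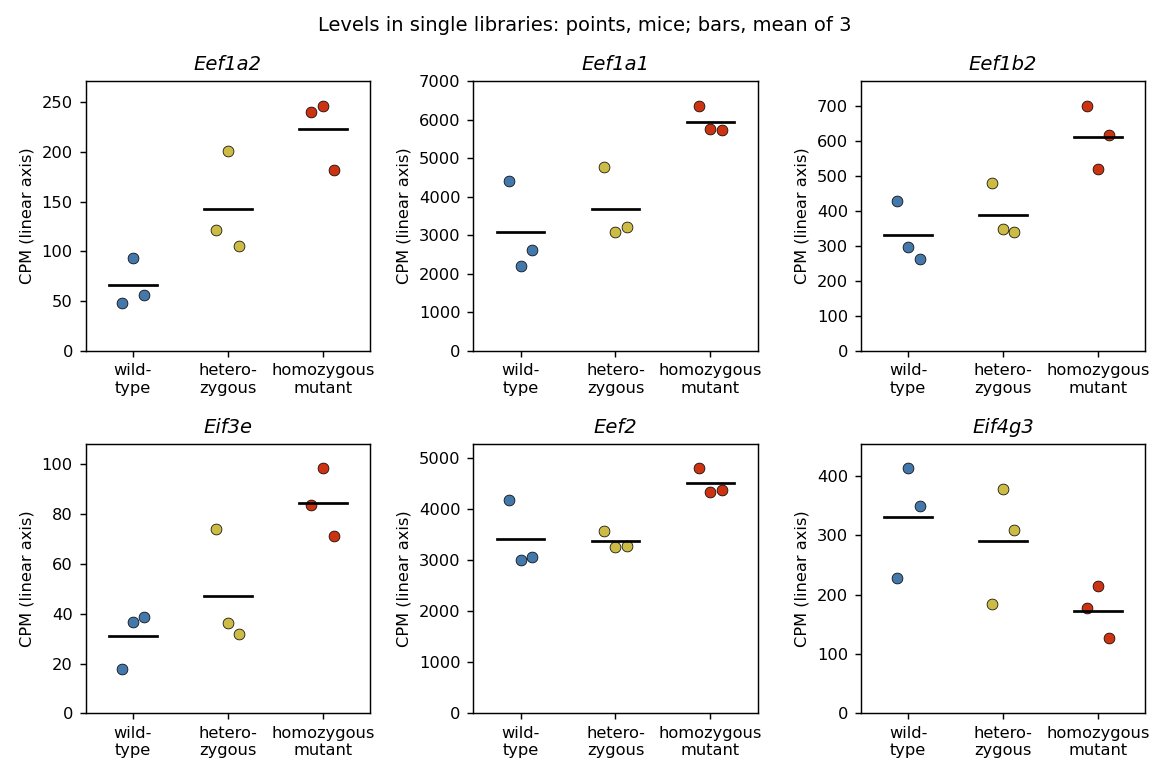
CPM in each library (points) with the mean of 3 (bars) for 6 factors, on linear axes that start at 0. *Eef1a2* separates wild-type from both mutant genotypes, and *Eef1a1*, *Eef1b2* and *Eef2* are highest in the homozygous mutants. *Eif4g3* has its lowest mean there, with heterozygous 45 inside the homozygous mutant range.

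The pair was next compared within each library, as the reads of *Eef1a2* per exon length in percent of those of *Eef1a1*. Normalization between libraries cannot change this measure. The percentages do depend on the lengths, which counted all annotated exons (2084 bases for *Eef1a2* and 2493 for *Eef1a1*). They also leave out the reads on *Eef1a1* pseudogenes, so they are not exact relative levels. The ratio was 1.29%, 5.09% and 2.57% in wild-type 44, 55 and 59, and 3.06%, 7.76% and 3.92% in heterozygous 45, 48 and 51. In the homozygous mutants 43, 46 and 47 it was 4.50%, 5.12% and 3.80%. *Eef1a1* was thus the more abundant by far in every library, and the genotypes overlapped. The log2 difference was 0.79 ± 0.58 (SE) between homozygous mutant and wild-type (two-sided exact permutation test, p = 0.3, adjusted p = 0.6 over 3 comparisons). It was 0.82 ± 0.70 between heterozygous and wild-type (exact p = 0.4, adjusted p = 0.6) and -0.03 ± 0.42 between homozygous mutant and heterozygous HCs (exact p = 0.9, adjusted p = 0.9). With 3 libraries against 3 this test cannot give a p below 0.1, so a shift in the ratio was neither shown nor bounded closely. The 78 genes took 1.27% to 1.64% of all reads in wild-type, 1.43% to 1.76% in heterozygous and 1.89% to 2.11% in homozygous mutant libraries, and *Eef1a1* with *Eef2* made up 39.7% to 54.6% of these reads.

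**Figure D3:**
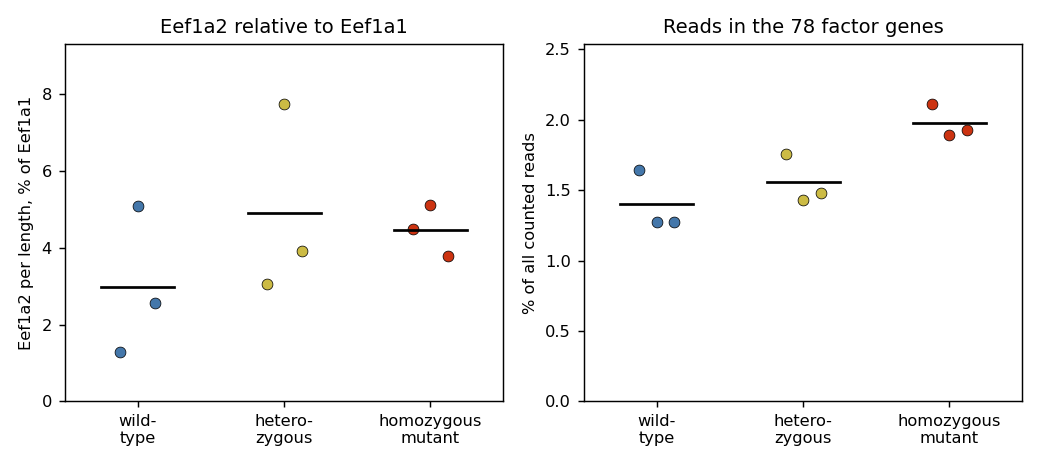
Left, *Eef1a2* reads per exon length in percent of *Eef1a1*; right, percent of all counted reads that fell in the 78 factor genes. Points are libraries and bars are means of 3; the ratios overlap between genotypes, whereas the share is 1.89% or more in the homozygous mutants and 1.76% or less elsewhere.

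Of the 11 *Eef* genes tested, 9 had an estimate above 0 in homozygous mutant against wild-type, with a median log2 fold change of 0.89. These genes include a kinase and methyltransferases of elongation factors. *Eef1b2*, the exchange factor that reloads eEF1A with GTP, had 429, 297 and 263 CPM in wild-type, 478, 347 and 341 CPM in heterozygous and 701, 518 and 616 CPM in homozygous mutant libraries. Its homozygous mutant libraries were above all others, with a log2 fold change of 0.89 ± 0.25 and an edgeR FDR of 0.120, and exons of *Ndufs1* overlap it on the opposite strand. *Eef1g*, another subunit of the exchange complex, had 57.3, 61.5 and 75.1 CPM in wild-type and 137, 101 and 70.6 CPM in homozygous mutants (log2 fold change 0.67 ± 0.34, edgeR FDR 0.408), and its ranges overlapped. The pseudogene *Gm4366* had more reads (101747) than *Eef1g* itself (18692), and with pseudogene reads added the log2 fold change was 0.33 ± 0.24. *Eef1d* and *Eef1e1*, the remaining pair grouped as the exchange complex and proteins associated with it, had log2 fold changes of -0.25 ± 0.32 and 1.08 ± 0.87.

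*Eef2*, the translocase that moves the ribosome by a codon, had 4170, 2993 and 3049 CPM in wild-type, 3572, 3256 and 3269 CPM in heterozygous and 4792, 4333 and 4357 CPM in homozygous mutant libraries. The homozygous mutants were the highest 3 of the 9, wild-type 44 came next, and the log2 fold change of 0.40 ± 0.21 was not called (edgeR FDR 0.419). Its inhibitory kinase, *Eef2k*, had a log2 fold change of 0.02 ± 0.29. *Eef2kmt*, which methylates eEF2, had 10.1, 13.5 and 15.6 CPM in wild-type and 39.0, 61.5 and 31.1 CPM in homozygous mutant libraries. These did not overlap, and the log2 fold change of 1.75 ± 0.57 had an edgeR FDR of 0.195, with exons of *Alg1* on the opposite strand. The eEF1A methyltransferases *Eef1akmt1* and *Eef1akmt2* had 1.04 ± 1.33 and -0.28 ± 0.68.

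Of the 51 *Eif* genes tested, which include proteins that bind eIF4E, the cap-binding protein, 31 had an estimate above 0. Their median log2 fold change was 0.21, and edgeR called none in this comparison. In the 14-gene group of eIF3, the scaffold that binds the small subunit and recruits the mRNA, 12 estimates were above 0 and the median was 0.39. *Eif3e* (chr15:43250058-43282719, minus strand) had 17.9, 36.8 and 38.7 CPM in wild-type, 74.0, 36.1 and 31.7 CPM in heterozygous and 83.8, 98.5 and 71.4 CPM in homozygous mutant libraries. The homozygous mutants were above all wild-type libraries, but heterozygous 45 lay among them, and the log2 fold change of 1.44 ± 0.43 had an edgeR FDR of 0.152. *Eif3h* (0.68 ± 0.32, FDR 0.370) and *Eif3k* (0.72 ± 0.35, FDR 0.383) had wild-type 44, at 196 and 224 CPM, inside the homozygous mutant ranges of 174 to 218 and 165 to 248 CPM. *Eif3f* had 0.12 ± 0.24, and the pair *Eif3j1* and *Eif3j2*, whose coding sequences were 99.2% identical, shared 37.7% and 87.4% of their 75-base words with each other, so that the counts of both are uncertain.

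The factors that bind the cap and unwind the mRNA had a median log2 fold change of -0.06, with 5 of 12 estimates above 0. *Eif4g3* (chr4:137993022-138208508, plus strand), a scaffold that joins the cap-binding protein to the helicase, had 227, 413 and 349.8 CPM in wild-type, 184, 379 and 309 CPM in heterozygous and 177, 215 and 126 CPM in homozygous mutant libraries. It was the only factor whose homozygous mutant libraries were all below the wild-type ones, though wild-type 44 was close to them and heterozygous 45 lay inside their range. The log2 fold change was -0.93 ± 0.30 (edgeR FDR 0.186), and -0.35 with the mouse number term. Its relatives *Eif4g1* and *Eif4g2* had -0.28 ± 0.26 and -0.06 ± 0.23. *Eif4ebp2*, which holds the cap-binding protein away from the scaffold, had 21.4, 59.3 and 40.3 CPM in wild-type and 39.4, 1.55 and 21.3 CPM in homozygous mutants (log2 fold change -0.96 ± 0.76, edgeR FDR 0.656), with homozygous mutant 46 far below the others.

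Among the factors that select the start codon and join the subunits, *Eif1a* had 39.0, 45.8 and 46.2 CPM in wild-type, 50.4, 50.6 and 42.2 CPM in heterozygous and 71.5, 125 and 69.7 CPM in homozygous mutant libraries. The homozygous mutants were above all others, with a log2 fold change of 1.02 ± 0.37 and an edgeR FDR of 0.243. *Eif2s1*, the alpha subunit of eIF2 that stress kinases phosphorylate, had 24.2, 19.8 and 15.1 CPM in wild-type and 39.9, 34.1 and 33.3 CPM in homozygous mutants (log2 fold change 0.86 ± 0.53, edgeR FDR 0.516). The gamma subunit is encoded on both sex chromosomes: the Y-linked *Eif2s3y* was at 1.65 CPM or less in wild-type 44 and 59 and heterozygous 48 and between 32.7 and 78.7 CPM in the other 6. The low 3 are the libraries with *Xist* above *Ddx3y*, and the log2 fold change was 2.52 ± 1.52 (edgeR FDR 0.542). The X-linked *Eif2s3x* and *Eif1ax* had -0.26 ± 1.06 and 0.55 ± 0.34, and *Eif5a*, which relieves stalled ribosomes and is modified to carry hypusine, had 0.14 ± 0.24.

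Over all 62 factors, 12 had every homozygous mutant library above every wild-type library (19.4%, beside 7.61% of all genes tested) and 1 had every one below (1.61%, beside 8.90%). The 12 were *Eef1a2*, *Eef1a1*, *Eef1b2*, *Eif3e*, *Eef2kmt*, *Eif1a*, *Eef2*, *Eif1ax*, *Eif2s1*, *Eif2b5*, *Eif2s3y* and *Eif3j2*, whose counts are uncertain as above, and the 1 was *Eif4g3*. No factor separated all 3 genotypes in order, as 0.257% of all genes did rising and 0.408% falling.

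The second comparison was that of heterozygous with wild-type HCs, since heterozygotes carry the milder, progressive phenotype. No factor was called by edgeR, DESeq2 or limma-voom, which called 0%, 0.303% and 0.00659% of all genes. At an unadjusted p under 0.05, edgeR gave *Eef1a2* higher and *Eif2d* lower, beside 1.79% and 2.73% of all genes. *Eif2d*, an alternative carrier of tRNA to the ribosome, had 74.96, 36.7 and 117 CPM in wild-type and 22.4, 31.8 and 49.7 CPM in heterozygous libraries, ranges that overlap (log2 fold change -1.14 ± 0.45, edgeR FDR 1). *Eef1a2* was the only factor with all heterozygous libraries above the wild-type ones (1.61%, beside 5.41% of all genes), and *Eif4a3l2*, *Eif4a3* and *Eif1* had all of them below (4.84%, beside 5.38%). *Eif4a3l2* and *Eif4a3* share 75-base words with each other and with the pseudogene *Gm5576*. With pseudogene reads added, their heterozygous and wild-type ranges overlapped, at log2 fold changes of -0.50 and -0.30, while those of *Eif1* did not. *Eif4b* and *Eif3e*, the next by p among the higher estimates, had log2 fold changes of 0.41 ± 0.25 and 0.60 ± 0.43, while *Eif4a3l2* and *Eif1*, the next among the lower, had -1.61 ± 1.00 and -0.41 ± 0.27.

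Between homozygous mutant and heterozygous HCs, no factor was called by edgeR or DESeq2, and limma-voom called *Eef1a1* and *Eef1b2*, both higher. Of all genes, edgeR called 0.00659%, a lone gene that was lower, DESeq2 called 0.968% and limma-voom 0.994%. At an unadjusted p under 0.05, edgeR gave 4 factors higher and 1 lower, beside 2.9% and 3.89% of all genes. The higher were *Eef1a1* (log2 fold change 0.69 ± 0.25), *Eef1b2* (0.65 ± 0.25), *Eif1a* (0.89 ± 0.37) and *Eif3k* (0.78 ± 0.35), and the lower was *Eif4g3* (-0.75 ± 0.30), the first 3 and *Eif4g3* with an edgeR FDR of 0.698 and *Eif3k* with 0.699. All homozygous mutant libraries lay above all heterozygous ones for 10 factors (16.1%, beside 6.95% of all genes) and below for *Eif4a2* (1.61%, beside 7.27%). *Eif4a2*, a cap-complex helicase with small nucleolar RNA genes inside its locus, had 331, 394 and 319 CPM in heterozygous and 267, 246 and 249 CPM in homozygous mutant libraries. *Eif4e1b* was at 4.18 CPM or less in all 9 libraries, and its estimate of -5.69 ± 3.13 rests on those few reads.

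When the number of *Dmdo* alleles was fitted as a trend, 4 factors passed an edgeR FDR of 10%, all rising, beside 1.78% of all genes called (66 rising, 0.435%, and 204 falling, 1.34%). *Eef1a2* rose by 0.88 ± 0.16 on the log2 scale per allele (edgeR FDR 0.011), *Eif3e* by 0.72 ± 0.20 (0.099), *Eef1a1* by 0.47 ± 0.12 (0.063) and *Eef1b2* by 0.45 ± 0.12 (0.080). The trend uses the same homozygous mutant and wild-type libraries as the first comparison. Only *Eef1a2* passed without wild-type 55, without wild-type 59, without any 1 homozygous mutant library or with the mouse number term, and no factor passed without wild-type 59 and homozygous mutant 46 together or with the *Ddx3y* to *Xist* term. Without heterozygous 51, *Eef1a1* and *Eef1a2* passed, beside 1.12% of all genes, and without wild-type 44, 8 factors did, beside 6.15%. In the fits named where only *Eef1a2* passed, 0.228% to 0.732% of all genes did. Where no factor passed, the share was 0.141% without the named pair of libraries and 0.0922% with the *Ddx3y* to *Xist* term.

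Levels were compared between genes per exon length, as TPM, read counts per exon length scaled to the same total in each library. The length counted every annotated exon of a gene and can exceed that of the mRNA in the cells. The TPM values and the order of the genes depend on this choice. In wild-type HCs *Eef1a1* led with 3487 ± 850 TPM (mean ± SD, n = 3), then *Eef2* with 2938 ± 219, a difference within their spread. *Eif5a* (537 ± 128), *Eif3f* (393 ± 91.0) and *Eef1b2* (372 ± 60.2) followed. The wild-type libraries of *Eif3f* overlapped those of *Eif5a* and of *Eef1b2*. Every *Eif5a* library (442 TPM or more) was above every *Eef1b2* library (426 TPM or less). *Eef1a2*, 24th of the 62 in wild-type, had 94.7 ± 46.3 TPM there, 209.8 ± 85.8 in heterozygous and 278 ± 43.2 in homozygous mutant HCs. *Eef1a1* had 4446 ± 764 TPM in heterozygous and 6207 ± 263 TPM in homozygous mutant HCs.

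**Figure D4:**
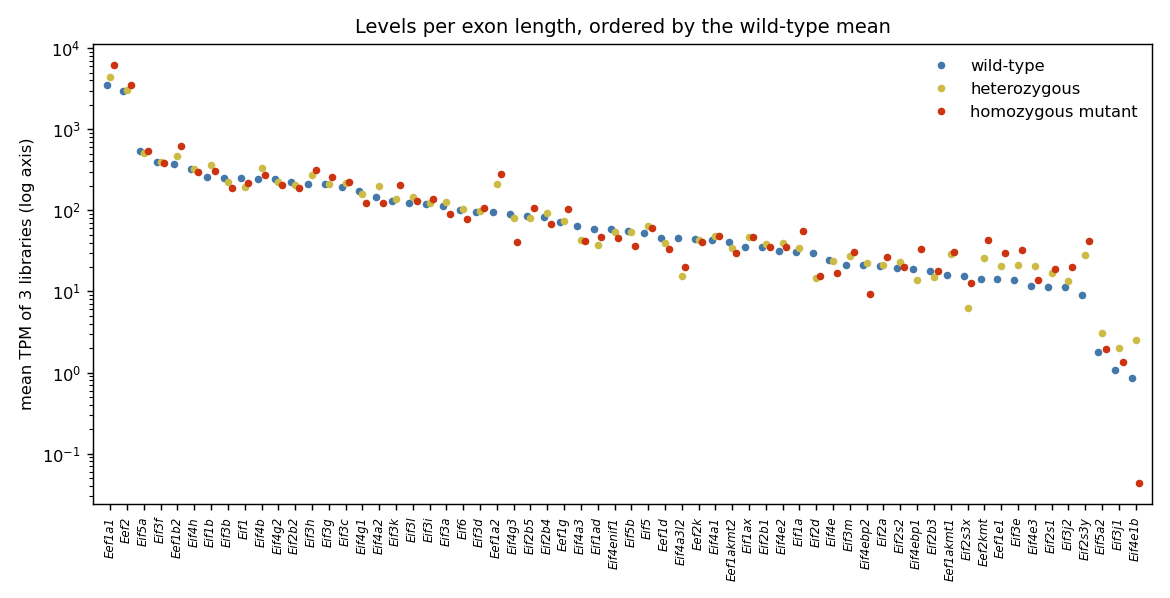
Mean TPM of 3 libraries per genotype for the 62 tested factors, ordered by the wild-type mean on a log axis. The length used counts every annotated exon of a gene, and the order depends on it. *Eef1a1* and *Eef2* stand above all other factors in every genotype, and *Eef1a2* lies at 94.7, 209.8 and 278 TPM in wild-type, heterozygous and homozygous mutant HCs.

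Besides *Eef1a1*, many factors shared read-length sequence with other genes: 27 of the 62 shared at least 1 word of 75 bases, and 13 shared at least 10% of theirs. For 14 factors with counted reads on such processed pseudogenes, 5 had more reads on the pseudogenes than on the gene: *Eef1g*, *Eif4a1*, *Eif2s3x*, *Eif3m* and *Eif2s2*. *Eif4a1*, the main helicase of the cap complex, had 17426 reads beside 100385 on its pseudogenes, and how these divide between gene and copies was not tested, so its level of 42.7 TPM in wild-type HCs is uncertain. Its log2 fold change was 0.34 ± 0.34 as counted and 0.46 ± 0.23 with pseudogene reads added. With those reads added to all such factors, *Eef1a2* was still the only factor called in homozygous mutant against wild-type HCs.

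**Figure D5:**
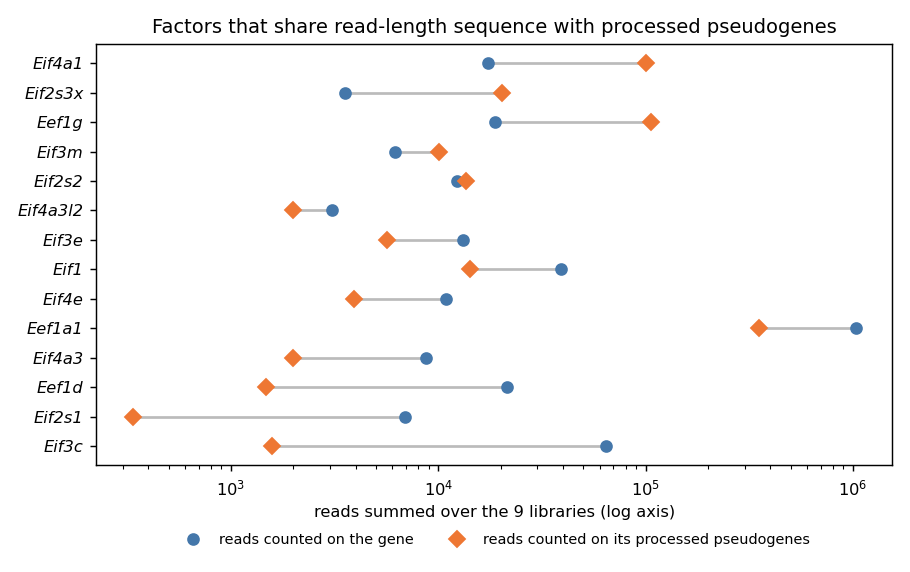
Reads summed over the 9 libraries on 14 factors (circles) and on the processed pseudogenes that share at least 50 words of 75 bases with them (diamonds), on a log axis. For 5 factors the diamond lies to the right of the circle, as for *Eif4a1* with 17426 and 100385 reads.

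Since the mutation changes a microRNA seed, annotated 3′ UTRs were searched on the mRNA strand for 7-base or 8-base matches to each seed. The wild-type match is GTGCCAA, or TGCCAA followed by A, or both together, and the *Dmdo* match is GAGCCAA, or AGCCAA followed by A, or both. A wild-type match was present in 11 of the 62 factors (17.7%, beside 19.7% of 12970 tested genes with a 3′ UTR) and a *Dmdo* match in 10 (16.1%, beside 19.2%). *Eef1a2*, *Eef1a1*, *Eef1b2* and *Eif3e*, the factors called by edgeR in any of its tests, held neither. Of the others called by DESeq2, *Eef2kmt* held a 7-base *Dmdo* match and *Eif1a* and *Eif4g3* held neither. The 8-base matches are shown, with the matched bases in capitals.
*Eif4ebp2*, wild-type match, chr10:61433684-61433691, minus strand: cccctctggGTGCCAAAtaatgg
*Eif5*, wild-type match, chr12:111546437-111546444, plus strand: ttcattctgGTGCCAAAccagtg
*Eif2b3*, *Dmdo* match, chr4:117072279-117072286, plus strand: aaataaaaaGAGCCAAAcatatt
The log2 fold changes of these 3 in homozygous mutant against wild-type HCs were -0.96 ± 0.76, 0.37 ± 0.27 and 0.13 ± 0.50, with edgeR FDRs of 0.656, 0.617 and 0.953. A match is a description of sequence and does not show that the site is used.

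Other genes of the translation pathway were read from 8 lists with 83 genes, of which 80 were tested. edgeR called none in homozygous mutant against wild-type HCs, DESeq2 called 3 (*Aimp1*, *Nupr1* and *Sars*) and limma-voom called *Sars*, where they called 1.15%, 6.36% and 2.23% of all genes. At an unadjusted p under 0.05, 8 were higher and 4 lower in edgeR, beside 4.92% and 8.19% of all genes, and the median log2 fold change was 0.12 beside -0.02. The largest list, 20 tested cytosolic aminoacyl-tRNA synthetases and their scaffolds, had 2 of the higher genes. *Sars*, which charges serine tRNA, had 198, 152 and 145 CPM in wild-type, 280.1, 225 and 188 CPM in heterozygous and 280.3, 289 and 349.7 CPM in homozygous mutant libraries. Its log2 fold change was 0.90 ± 0.25 (edgeR FDR 0.120), and it was the only one of the 80 to pass in the trend (0.45 ± 0.12 per allele, edgeR FDR 0.082). The synthetase scaffold *Aimp1* had 1.19 ± 0.37 (edgeR FDR 0.176).

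Of 10 targets of the integrated stress response, which follows phosphorylation of eIF2alpha, 6 had an estimate above 0 and 2 were higher at an unadjusted p under 0.05, *Nupr1* at 8.17 CPM or less and *Trib3* at 17.4 CPM or less in every library. The 6 eIF2alpha kinases and phosphatase subunits had a median log2 fold change of -0.51, with *Eif2ak1* at -0.78 ± 0.55 and *Eif2ak3* at -0.80 ± 0.62 (edgeR FDRs 0.600 and 0.642). In the mTOR and MNK list, 1 of 12 genes was higher and 2 were lower at that p: *Mknk1*, a kinase of the cap-binding protein, had 0.91 ± 0.38, and *Tsc2* and *Rptor* had -0.75 ± 0.35 and -0.84 ± 0.39. Of the poly(A)-binding proteins and their partners, *Paip2* was higher (0.65 ± 0.30) and *Pabpn1* lower (-1.17 ± 0.40, edgeR FDR 0.211) at that p. The recycling factor *Abce1* (0.87 ± 0.38) and the mitochondrial initiation factor *Mtif2* (1.27 ± 0.57) were the only genes of their lists higher at that p. The selenocysteine factor *Secisbp2* (-0.98 ± 0.45) was the only gene of its list lower at that p.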

How the data were processed

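RNA from sorted HCs of 9 mice was sequenced by the authors as 75-base paired reads from a directional kit, aligned to GRCm38 with HISAT2 2.0.4 and counted per gene with HTSeq. The deposited values are raw counts per gene and library. The authors annotated genes from a stated BioMart release, but the gene annotation file and the strand setting used for counting are not given in the sources used here.

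Genes with at least 20 reads in at least 2 of 3 libraries of any genotype (15184 of 43808) were fitted together in edgeR 4.0.16 (R 4.3.3) with TMM normalization and the robust quasi-likelihood test on all 9 libraries. Calls needed an FDR under 10% over all genes tested and, except in the trend, a fold change above 1.5. The script was tested on simulated data. DESeq2 1.42.0, limma-voom (limma 3.58.1), other filters and normalizations, omitted libraries and added terms were alternatives. CPM used TMM library sizes, and TPM used the length of all annotated exons of a gene, with overlaps counted once. Coordinates, UTRs, exon lengths and shared words came from GENCODE annotation of GRCm38. Totals were 18175317 to 34873964 reads, so well-covered factors were limited by the spread between mice rather than by counting. Same-genotype libraries differed far beyond sampling noise, and none was a copy of another. No library or gene row was imputed.

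The factors, gene lists and tests were chosen with earlier results of these data known. Factors named are *Eef1a1*, *Eef1a2*, those called in any test, the 10 of smallest p in homozygous mutant against wild-type HCs, the 3 of smallest p in each direction in the other pairs, the 5 highest per length, the smallest p of each role group, those on sex chromosomes, and up to 4 genes of each pathway list. Other names were chosen after their values were seen.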

Additional observations from a re-analysis of the deposited data

How the results depend on the processing

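No paired analysis was possible because the labels give no replicate numbers shared between genotypes. In homozygous mutant against wild-type HCs, where 1 factor was called, the count was 2 with RLE size factors, library totals or filterByExpr, 7 with DESeq2, 4 with limma-voom and 6 with no filter. It was 0 without wild-type 59 and homozygous mutant 46 and 0 with the *Ddx3y* to *Xist* term, and leaving out each library gave 0 to 7 (7 without wild-type 44, 3 without heterozygous 45, 0 without wild-type 59 or homozygous mutant 43). Over these settings the share of all genes called ran from 0.0724% (*Ddx3y* to *Xist* term) to 6.36% (DESeq2). The median log2 fold change of the factors ran from 0.19 to 0.39 with each library left out. In homozygous mutant against heterozygous HCs limma-voom gave 2 in place of 0. In the trend, 4 became 1 at an FDR of 5% or with the mouse number term, 7 with DESeq2, 8 with limma-voom, 0 without wild-type 59 and homozygous mutant 46 or with the *Ddx3y* to *Xist* term, and 1 to 8 with each library left out. The share of all genes passing the trend was 1.78% in the main fit, 0.612% at an FDR of 5% and 0.389% with the mouse number term. It was 6.84% with DESeq2 and 5.16% with limma-voom. Without wild-type 59 and homozygous mutant 46 it was 0.141%, with the *Ddx3y* to *Xist* term 0.0922%, and with each library left out 0.228% to 6.15%. With pseudogene reads added, an alternative chosen after seeing the data, the trend count was 3, without *Eif3e*, beside 1.76% of all genes. The causes were not tested.

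*Eef1a2* kept its direction in homozygous mutant against wild-type HCs in every alternative run, at 1.58 to 2.09 with each library left out. The log2 difference of the *Eef1a2* to *Eef1a1* ratio between homozygous mutant and heterozygous HCs ran from -0.31 to 0.36 with each library left out. Other estimates changed sign, with the range over libraries left out given where leaving out a library did it. *Eif5a* ran from -0.046 (without wild-type 55) to 0.32. *Eif3f* ran from -0.061 (without wild-type 59) to 0.28, and was -0.000303 without wild-type 59 and homozygous mutant 46, -0.028 with the mouse number term and -0.029 with the *Ddx3y* to *Xist* term. *Sephs2* ran from -0.0099 (without homozygous mutant 46) to 0.70, and was -0.15 without it and wild-type 59. *Eif2s3x* ran from -0.76 to 1.05 (without wild-type 44), and was 0.22 without homozygous mutant 47, 0.37 with limma-voom and 1.65 with the *Ddx3y* to *Xist* term, where *Eif2ak4* was 0.20. With the mouse number term *Denr* was -0.13, *Ddit4* -0.025 and *Tsc2* 0.0099. With 3 mice per genotype, differences of the size of most factors here are within the spread between mice.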
